A study of Homo sapiens with 2 samples.

Results

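A set of 10 genes grouped under the integrated stress response was followed through the single-cell transcriptomes of 2 blood-generating heart-forming organoids (BG-HFOs). The genes are DDIT3, ATF3, ATF4, TRIB3, DDIT4, CHAC1, ASNS, SESN2, GADD45B and SQSTM1, 10 of the 36601 genes in each matrix, and every one of them matched 1 row. They were chosen by their own share of UMIs (unique molecular identifiers, the counted RNA molecules) by lineage, by sequencing depth and by mitochondrial percentage in these cells, so those values are given as a description, with no test. Both organoids, 32.7 and 33.10, were BG-HFOs from the human embryonic stem cell line hES3 NKX2.5-eGFP, in which green fluorescent protein marks the cardiac gene NKX2.5. Aggregates were embedded in Matrigel, steered to heart, vessel and blood by a biphasic WNT cue with haemato-endothelial factors, and dissociated singly on day 14. Neither organoid had another treatment, and no second line or untreated group was measured, so each value stands for n = 2 organoids of 1 line.

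When protein synthesis is stressed, kinases that sense unfolded protein in the endoplasmic reticulum (ER), haem shortage, double-stranded RNA or missing amino acids phosphorylate the translation factor eIF2. General translation falls, while the mRNA of ATF4 is translated better. ATF4 then drives DDIT3 (the transcription factor CHOP), ATF3, TRIB3, CHAC1, ASNS and SESN2, and DDIT3 in turn raises TRIB3. ATF4 is controlled at translation, so its RNA level is not a readout of its activity. DDIT4, GADD45B, ATF3 and SQSTM1 also answer to hypoxia, glucocorticoids, p53, NRF2, cytokines and immediate stress signals.

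The genes lie on 9 chromosomes of GRCh38, at the positions of GENCODE. The transcription factor genes were DDIT3 (chr12:57516588-57521737, minus strand), ATF3 (chr1:212565334-212620777, plus strand) and ATF4 (chr22:39519695-39522683, plus strand). TRIB3, a pseudokinase that restrains ATF4, DDIT3 and AKT, was at chr20:362835-397559 (plus strand), and CHAC1, which degrades glutathione, at chr15:40952962-40956512 (plus strand). ASNS, asparagine synthetase, was at chr7:97851677-97872542 (minus strand). The mTORC1 inhibitors DDIT4 and SESN2 were at chr10:72273919-72276036 and chr1:28259518-28282491, both on the plus strand. GADD45B, a stress-kinase adaptor, was at chr19:2476122-2478259 and SQSTM1, the autophagy receptor p62, at chr5:179806398-179838078, both on the plus strand.

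The binding motif of ATF4 with a C/EBP partner, the C/EBP-ATF response element, was searched as TGATGNAA on both strands in RefSeq promoter windows (250 bases before to 50 after a gene's start, GRCh38.p14). All 10 genes had a window, 18 windows in all, and 3 windows held the motif, those of ATF3, CHAC1 and ASNS. Among all 35116 windows 3.62% held it, and 4.46% of 27305 genes had at least 1. The following 30 bases around each match are shown because they are the letters through which ATF4 could read these promoters. They are written 5′ to 3′ on the gene's strand, with the motif, or its reverse complement in CHAC1, in capitals. Motif positions are counted from the RefSeq start of the window, which can differ from the GENCODE start. The ASNS and CHAC1 matches therefore lie inside the GENCODE spans given above.
ATF3, chr1:212565205-212565234, motif from position -191: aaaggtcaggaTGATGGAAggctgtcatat
ASNS, chr7:97872458-97872487, motif from position -68: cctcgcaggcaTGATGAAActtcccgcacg
CHAC1, chr15:40953251-40953280, motif from position -209: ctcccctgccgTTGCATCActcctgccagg
Of these 3 genes, ATF3 and CHAC1 stood highest in different lineages. ASNS was counted near the floor everywhere, but its counts are uncertain, because 49.3% of its exonic bases are shared with another transcript. Whether the level of a gene follows the match was not tested.

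The libraries held 16866 and 19948 barcodes, with a median of 7842 and 8284.5 UMIs and 4.44% and 4.09% of UMIs from mitochondrially encoded (MT-) genes. Of these, 16792 and 19893 cells passed the study's filter, and 100 barcode sequences occurred in both libraries. Clustering without the 10 genes or the lists below gave 24 clusters. They were named from marker genes as endothelial-like, cardiomyocyte-like, epicardial or mesenchymal-like, endodermal-like, megakaryocyte-like, erythroid-like and myeloid-like, shortened here by the ending. A cluster of 328 and 1317 cells carried megakaryocyte and erythroid markers almost equally (mean log2 ratio 3.45 and 3.21) and is called megakaryocyte-erythroid. A further 6 clusters with markers of unrelated lineages, 14.4% and 13.4% of cells, were left unnamed, and free RNA and doublets were not removed.

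DDIT3 stood far above its usual level in the megakaryocyte-erythroid cluster, at 407 counts per 1000000 UMIs (CPM) in organoid 32.7 and 278 CPM in organoid 33.10. The erythroid lineage came next with 52.1 and 50.6 CPM, then the endodermal lineage with 41.5 and 44.3 CPM and the megakaryocyte lineage with a mean of 42.4 ± 2.28 CPM (SD, n = 2). Endothelial, epicardial or mesenchymal, myeloid and cardiomyocyte cells lay together between 19.6 and 26.6 CPM. The megakaryocyte-erythroid, erythroid and endodermal levels did not overlap, whereas endodermal and megakaryocyte cells overlapped and the 4 lowest lineages could not be ordered by their 2 organoids. The cluster held 11.7% and 26.6% of all DDIT3 UMIs with 1.95% and 6.62% of the cells.

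ATF3, an early transcription factor of the response, was also highest in the megakaryocyte-erythroid cluster, with 110 CPM in organoid 32.7 and 44.2 CPM in organoid 33.10. The organoids differed there by more than a factor of 2, and 1 cell of organoid 32.7 carried 53 of its 188 ATF3 UMIs. Elsewhere ATF3 lay between 5.81 and 13.3 CPM, except for 26.8 CPM in the 32 endodermal cells of organoid 33.10, a value from 20 UMIs. ATF4 RNA varied far less, from 61.1 to 77.0 CPM in cardiomyocytes to 157 and 168 CPM in the megakaryocyte-erythroid cluster. Its erythroid (136 and 148 CPM), endothelial (134 and 121 CPM) and megakaryocyte levels (126 and 126 CPM) followed closely, and endothelial and megakaryocyte cells overlapped.

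SQSTM1, which tethers ubiquitinated cargo to autophagosomes, shared the pattern of DDIT3. It reached 1252 and 957 CPM in the megakaryocyte-erythroid cluster against 236 and 255 CPM in megakaryocytes. Endothelial cells (127 and 114 CPM) and erythroid cells (107 and 134 CPM) overlapped, and every other named lineage was between 61.5 and 86.2 CPM. GADD45B stood at 99.4 and 47.9 CPM in the megakaryocyte-erythroid cluster, 14.6 and 13.1 CPM in myeloid cells and only 1.78 and 2.35 CPM in megakaryocytes. The plot of the 10 genes by lineage sets these levels side by side.

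**Figure D1:**
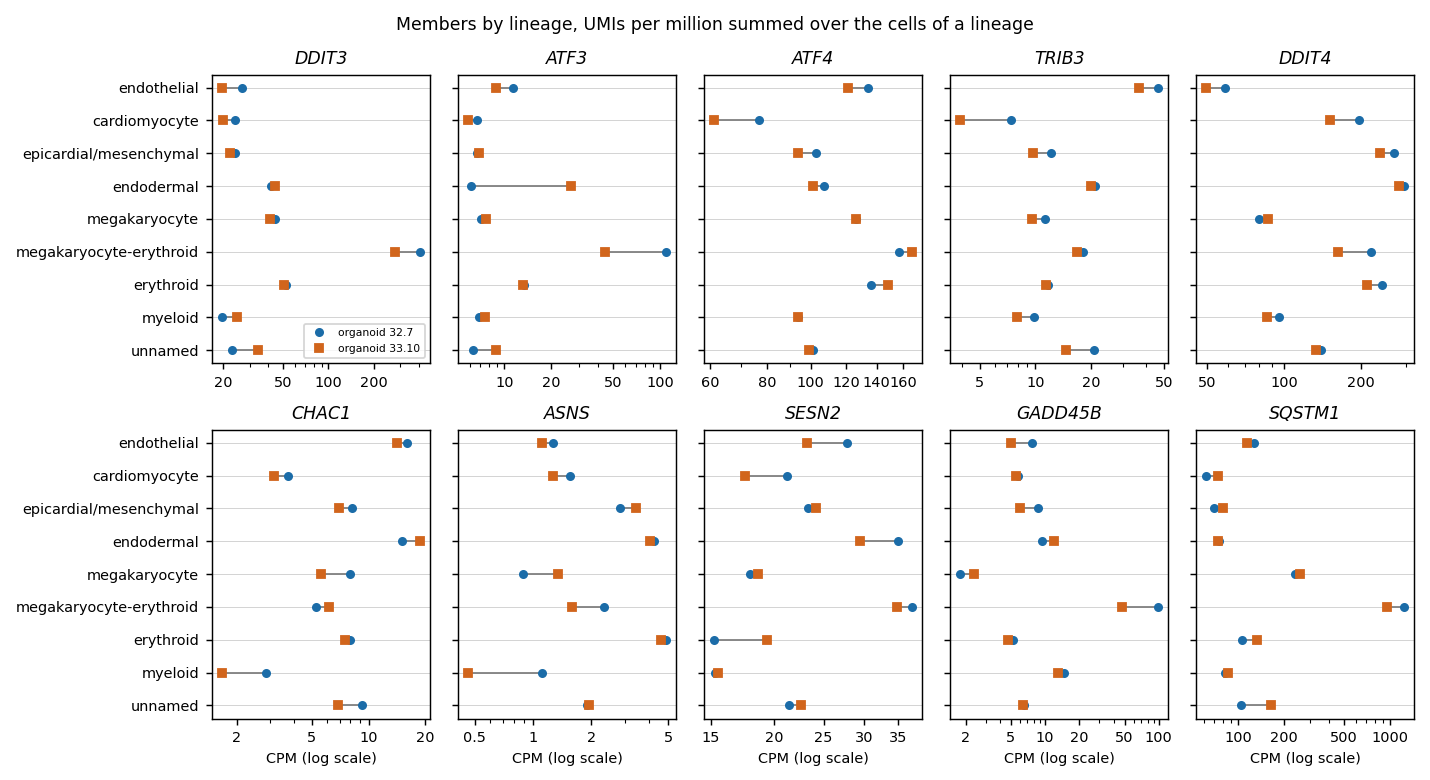
Level of each of the 10 genes (x axis, CPM, log scale) in each lineage (rows) for organoid 32.7 (circles) and organoid 33.10 (squares), joined by a line. DDIT3, ATF3, GADD45B and SQSTM1 stand apart in the megakaryocyte-erythroid row, at 407 and 278 CPM for DDIT3, while TRIB3 peaks in endothelial cells (46.5 and 36.5 CPM) and DDIT4 is lowest there.

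Against the median of the other 7 named lineages, with 5 CPM added to both, DDIT3 was higher in the megakaryocyte-erythroid cluster by 3.70 and 3.24 on the log2 scale. SQSTM1 was higher by 3.84 and 3.40, ATF3 by 3.28 and 1.97, and GADD45B by 3.04 and 2.33. Only genes with a mean of at least 5 CPM over the named lineages and both organoids were counted, which left 9 members (ASNS was below). These 4 were the members at least 2-fold higher in both organoids, and 6.67% of 12817 genes passed the same rule. None of the 9 was 2-fold lower, against 5.63% of genes. Since the genes were chosen on such levels, nothing is read from their count. On the same scale SESN2 was at 0.70 and 0.71, ATF4 at 0.54 and 0.71, TRIB3 at 0.47 and 0.56 and DDIT4 at 0.16 and 0.11, whereas CHAC1 was at -0.34 and -0.11.

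Over the single clusters these 4 genes, and ATF4 by a small margin, ranked first in the megakaryocyte-erythroid cluster in both organoids, as the plot of the 24 clusters shows. The median of the other 23 clusters was 23.5 and 28.4 CPM for DDIT3 and 92.4 and 102 CPM for SQSTM1. The nearest cluster for DDIT3 in organoid 32.7 was a shallow endothelial cluster, with 125 CPM there and 30.2 CPM in organoid 33.10. Of its 447 DDIT3 UMIs in organoid 32.7, 350 came from 39 of 1229 cells with at least 3 UMIs each. For GADD45B in organoid 33.10 the same cluster reached 41.6 CPM, but 110 of the 132 UMIs sat in 2 cells, 1 of them with 96. With coarser clustering (resolution 0.4) the megakaryocyte-erythroid cells merged into a cluster of 5605 cells, and the mean fold was 3.25 for DDIT3 (11.3 before) and 4.56 for SQSTM1 (12.4 before). ATF3, at 1.82 (6.81 before), and GADD45B, at 1.42 (6.62 before), were then below 2-fold.

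**Figure D2:**
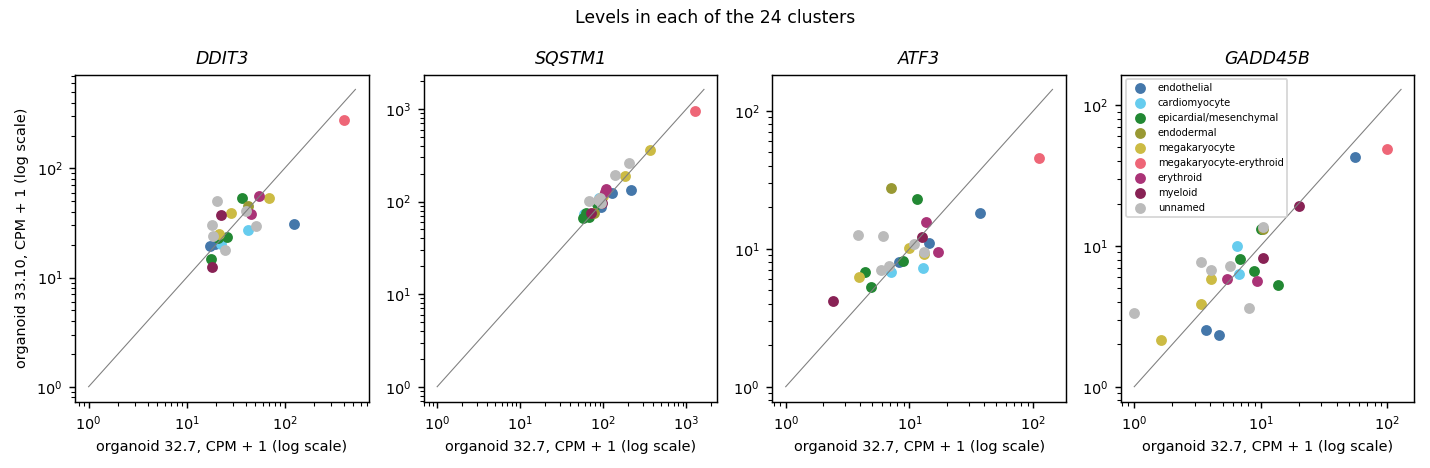
Level of 4 genes in each of the 24 clusters, organoid 32.7 on the x axis and organoid 33.10 on the y axis (CPM + 1, both log scales), coloured by lineage, with the line of equal levels. The megakaryocyte-erythroid cluster lies farthest out in all 4 panels, at 1252 and 957 CPM for SQSTM1, and the shallow endothelial cluster lies off the line for DDIT3 (125 and 30.2 CPM).

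Within the megakaryocyte-erythroid cluster 51.5% and 52.7% of cells carried at least 1 DDIT3 UMI. Cells with at least 3 made up 24.4% and 22.4% of the cluster and held 81.8% and 77.9% of its DDIT3 UMIs, a share that picking cells by their own DDIT3 count raises by itself. Among all other cells, which were deeper (median 8028 and 8686 UMIs against 3537 and 4348), 2.47% and 3.00% had as many. In these DDIT3-rich cells SQSTM1 was at 1993 and 1538 CPM, against 762 and 615 CPM in cells of the same cluster with no DDIT3 UMI. TRIB3 was at 38.4 and 37.1 CPM against 1.58 and 8.44 CPM, from only 31 and 148 UMIs in the whole cluster. DDIT4 was at 409 and 253 CPM against 125 and 112 CPM, and GADD45B at 213 and 124 CPM against 52.1 and 7.63 CPM. ATF3 differed in organoid 33.10 (87.5 against 16.6 CPM) but not in organoid 32.7 (102 against 103 CPM). CHAC1 was at 7.69 and 8.40 CPM against 1.58 and 3.00 CPM, from 9 and 54 UMIs in the whole cluster. DDIT3-rich cells were also deeper than cells without it (median 4861.5 and 5417 against 1805 and 3583 UMIs), which picking cells by a raw count favours by itself. Per UMI outside MT- genes, DDIT3 in this cluster was at 656 and 753 CPM in cells of 1000 to 2000 UMIs. It was at 180 and 202 CPM at 8000 to 16000 UMIs, and at 69.4 and 232 CPM at 500 to 1000, from 2 and 9 DDIT3 UMIs. DDIT3-rich cells held less PF4, the platelet chemokine (815 and 1877 against 4375 and 4305 CPM). The part of depth in the differences between DDIT3-rich cells and cells without DDIT3 was not tested.

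Other genes of the stress pathways were read in the same cluster. Counts are of genes at least 2-fold higher or lower in both organoids than the median of the other lineages. By this rule 6.67% of all 12817 genes were higher and 5.63% lower. Of 17 p53 targets 9 were higher and 1 lower, including the cell-cycle inhibitor CDKN1A (1514 and 884 CPM, against 75.7 and 79.0) and the apoptosis gene BBC3 (437 and 233 CPM, against 19.1 and 20.1). Of 16 immediate early genes 8 were higher, including ZFP36 (164 and 73.4 CPM, against 22.8 and 15.3). Of 11 other stress targets 3 were higher and 1, ERO1A, lower. The higher ones included PPP1R15A, which returns eIF2 to its active form (356 and 251 CPM, against 37.5 and 33.3), and the cytokine gene GDF15 (316 and 239 CPM, against 27.7 and 35.8). These genes were not particular to this cluster. By the same rule megakaryocytes were also higher for CDKN1A, BBC3, ZFP36 and PPP1R15A, erythroid cells for BBC3 and GDF15, and myeloid cells for ZFP36.

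Of 16 amino acid and one-carbon targets of ATF4, the transporters SLC7A5 and SLC38A2 were higher and the serine synthesis enzyme PHGDH lower (21.6 and 27.4 CPM, against 78.9 and 73.3). All genes gave 6.67% higher and 5.63% lower, so these counts do not set the list apart. SLC7A11 and SLC3A2 were higher in both organoids but past 2-fold in organoid 32.7 alone. None of 13 aminoacyl-tRNA synthetases differed 2-fold in both organoids, and EPRS was past 2-fold lower in organoid 32.7 alone (46.2 CPM, against 99.0). Of 18 ER chaperone and degradation genes none was higher and 5 were lower, PDIA6, PDIA4, HSP90B1, CALR and HSPA5, the last at 136 and 156 CPM against 309 and 324 CPM. This was not particular to the cluster. By the same rule erythroid cells were lower for 7 of the 18, among them PDIA6, PDIA4, HSP90B1 and HSPA5, and megakaryocytes for PDIA4. In erythroid cells the median log2 difference of the ER list was -0.98, against -0.24 over all genes tested. Of 15 genes of eIF2 and its regulators 1 was higher and none lower, which does not set this list apart from all genes. It was EIF2AK1, the haem-regulated kinase (203 and 165 CPM, against 66.6 and 77.6), and erythroid cells passed 2-fold for it too. The ER kinase EIF2AK3 was higher in both organoids (52.6 and 48.1 CPM, against 20.0 and 24.8) but past 2-fold in organoid 32.7 alone. The median log2 difference was 1.09 for the p53 targets, 1.35 for the immediate early genes and -0.09 over all genes tested. It was -0.27 for the amino acid targets and -0.82 for the ER list. For 5 glucocorticoid genes it was 1.36, for 8 autophagy genes 0.72, for 11 NRF2 targets 0.31 and for 14 hypoxia genes -0.21. Of the glucocorticoid genes TSC22D3, PER1 and ZBTB16 were higher and FKBP5 lower. Megakaryocytes were also higher for TSC22D3 and ZBTB16. The nuclear RNA MALAT1 was also high in this cluster, at 95902 and 61746 CPM against 16595 and 17144 CPM, and its part in these levels was not tested. Megakaryocytes passed 2-fold for MALAT1 as well.

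Endothelial cells had the highest TRIB3 of the named lineages and, together with endodermal cells, the highest CHAC1. TRIB3 was at 46.5 and 36.5 CPM there, ahead of endodermal cells (21.1 and 20.1 CPM) and the megakaryocyte-erythroid cluster (18.1 and 16.8 CPM), and lowest in cardiomyocytes (7.38 and 3.89 CPM). CHAC1 was at 16.0 and 14.2 CPM in endothelium and at a mean of 16.9 ± 2.67 CPM (SD, n = 2) in endodermal cells, which overlapped, and at 2.86 and 1.66 CPM in myeloid cells. All 3 endothelial clusters carried arterial markers, to differing degrees. The most arterial one (mean log2 ratio 2.84, against 1.41 in the venous and 1.08 in the shallow cluster) had 53.4 and 43.3 CPM of TRIB3 and 20.1 and 18.2 CPM of CHAC1. The shallow cluster was close in TRIB3 (53.9 and 35.0 CPM) and lower in CHAC1 (11.5 and 12.6 CPM). The venous cluster, so called for its highest marker class (mean log2 ratio 2.63, against 1.27 in the most arterial cluster), had 23.7 and 20.9 CPM of TRIB3 and 5.85 and 5.41 CPM of CHAC1.

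The same most arterial cluster held the least DDIT4 of all 24, at 28.2 and 23.8 CPM. DDIT4 reached 118 and 85.5 CPM in the venous cluster and peaked at 401 and 343 CPM in an epicardial or mesenchymal cluster led by COL8A1 and PTPRT. By lineage it was 58.6 and 49.3 CPM in endothelium, 80.0 and 86.3 CPM in megakaryocytes and 297 and 282 CPM in endodermal cells. Against the median of the other lineages TRIB3 was 3.08 and 2.82 times higher in endothelium and DDIT4 was at 0.284 and 0.323 of it. A median over clusters instead of all endothelial cells gave 0.543 for DDIT4. These were the 2 members past 2-fold in both organoids, 1 of 9 higher against 9.72% of genes and 1 of 9 lower against 3.46%. Of 14 hypoxia genes 4 were lower in endothelium, VEGFA, SLC2A1, PDK1 and LDHA, and 2 were higher, NDRG1 and ADM. The median log2 difference of this list was -0.79, against 0.16 over all genes tested. None of 16 amino acid targets, 13 tRNA synthetases or 18 ER genes passed 2-fold in both organoids in endothelium. The ER gene HERPUD1 came nearest, at a log2 difference of 0.88 and 1.00 (84.2 and 74.4 CPM, against 43.5 and 34.7). Of 16 immediate early genes 6 were higher there and none lower, IER2, NR4A1, DUSP1, KLF6, KLF2 and JUN, with a median log2 difference of 0.75 against 0.16 over all genes tested.

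SESN2 varied little among lineages. It ranged from 15.3 and 15.5 CPM in myeloid cells, which overlapped with erythroid cells (15.2 and 19.3 CPM), to 37.4 and 34.8 CPM in the megakaryocyte-erythroid cluster, which overlapped with endodermal cells (35.0 and 29.5 CPM). ASNS was counted with only 400 and 521 UMIs in all cells and lay between 0.460 and 4.90 CPM. Its counts are uncertain, because 49.3% of its 4896 exonic bases are shared with exons of the same-strand transcript AC079781.5, and Cell Ranger leaves out a read that fits both genes. AC079781.5 had 8580 and 10887 UMIs against 402 and 531 for ASNS over all barcodes. It was lowest in megakaryocytes (25.1 and 27.7 CPM) and highest in epicardial or mesenchymal cells (64.1 and 62.7 CPM) and cardiomyocytes (57.0 and 65.1 CPM), which overlapped. For DDIT3, 8.03% of exonic bases are shared with AC022506.1, which had no UMI.

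Across the 24 clusters, DDIT3 and ATF3 levels went together (Pearson r of log2(CPM + 5) 0.88 and 0.85 in the 2 organoids), as did DDIT3 and SQSTM1 (0.75 and 0.80) and TRIB3 and CHAC1 (0.68 and 0.76). DDIT3 and TRIB3, factor and target, did not (0.09 and 0.06), and DDIT3 and CHAC1 gave -0.06 and 0.08. Clusters share library and free RNA, so these are descriptions. The megakaryocyte-erythroid cluster ranked first in DDIT3, ATF3 and SQSTM1, so this 1 cluster can carry much of the r among them. Values without it were not computed, neither here nor for the nearest genes below. The genes outside the 10 most like DDIT3 were AL118516.1, BBC3, ELK1, YPEL3 and SUPT4H1, with the lower r between 0.76 and 0.81. ATF3 was most like SUPT4H1, ZFAND2A, PITHD1, GDF15 and ELK1, between 0.70 and 0.75. For CHAC1 they were the seryl-tRNA synthetase gene SARS, TRAF4, TRIP10, SMARCD1 and ANKRD40, between 0.65 and 0.69. Named after their values were seen, the genes nearest to TRIB3 began with DUSP1 (0.85 and 0.91) and included the endothelial factors SOX7 and SOX17. Those nearest to SQSTM1 included CDKN1A (0.95 and 0.92) and PPP1R15A (0.91 and 0.91), and the one nearest to DDIT4 after PLEKHA4 was the glucose transporter SLC2A1 (0.85 and 0.86).

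The members also differed with the MT- percentage of a cell, here as CPM of all UMIs outside MT- genes. In the 469 and 769 cells with less than 1% MT, DDIT3 was at 121 and 103 CPM, at 50.4 and 53.1 CPM between 1% and 2.5%, and at 21.9 and 36.2 CPM between 5% and 10%. DDIT4 went from 376 and 298 CPM to 125 and 110 CPM over these ranges, and ATF3 from 33.1 and 37.8 CPM to 7.65 and 7.16 CPM. SQSTM1 was at 257 and 251 CPM in the lowest range and at 107 and 176 CPM at 5% to 10%. ATF4 stayed between 111 and 150 CPM up to 10%. All 10 members were higher under 1% than between 5% and 10% in both organoids, with mean ratios from 1.23 for ATF4 to 4.80 for ATF3. The order did not hold to the end of the scale: between 20% and 30%, in 124 and 45 cells, DDIT3 was at 20.3 and 117 CPM, from 5 and 18 UMIs. Of these UMIs, 4 and 14 came from 3 and 11 cells of the megakaryocyte-erythroid cluster. Within that cluster DDIT3 was at 569 and 469 CPM under 1% and 187 and 268 CPM between 5% and 10%. Between 10% and 20% it was higher again, at 425 and 462 CPM, from 38 and 172 UMIs.

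The cells of the MT ranges were not of like composition. Erythroid cells made up 9.59% and 26.7% of the lowest range and 6.58% and 8.21% of the 5% to 10% range, and epicardial or mesenchymal cells 42.9% and 30.8% against 12.4% and 11.2%. Without the megakaryocyte-erythroid cluster DDIT3 still went from 114 and 85.5 CPM to 20.5 and 25.2 CPM. MALAT1 moved with the members, from 30192 and 32395 CPM to 14444 and 18952 CPM, while the ER chaperone HSPA5 moved less, from 366 and 376 CPM to 348 and 299 CPM.

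**Figure D3:**
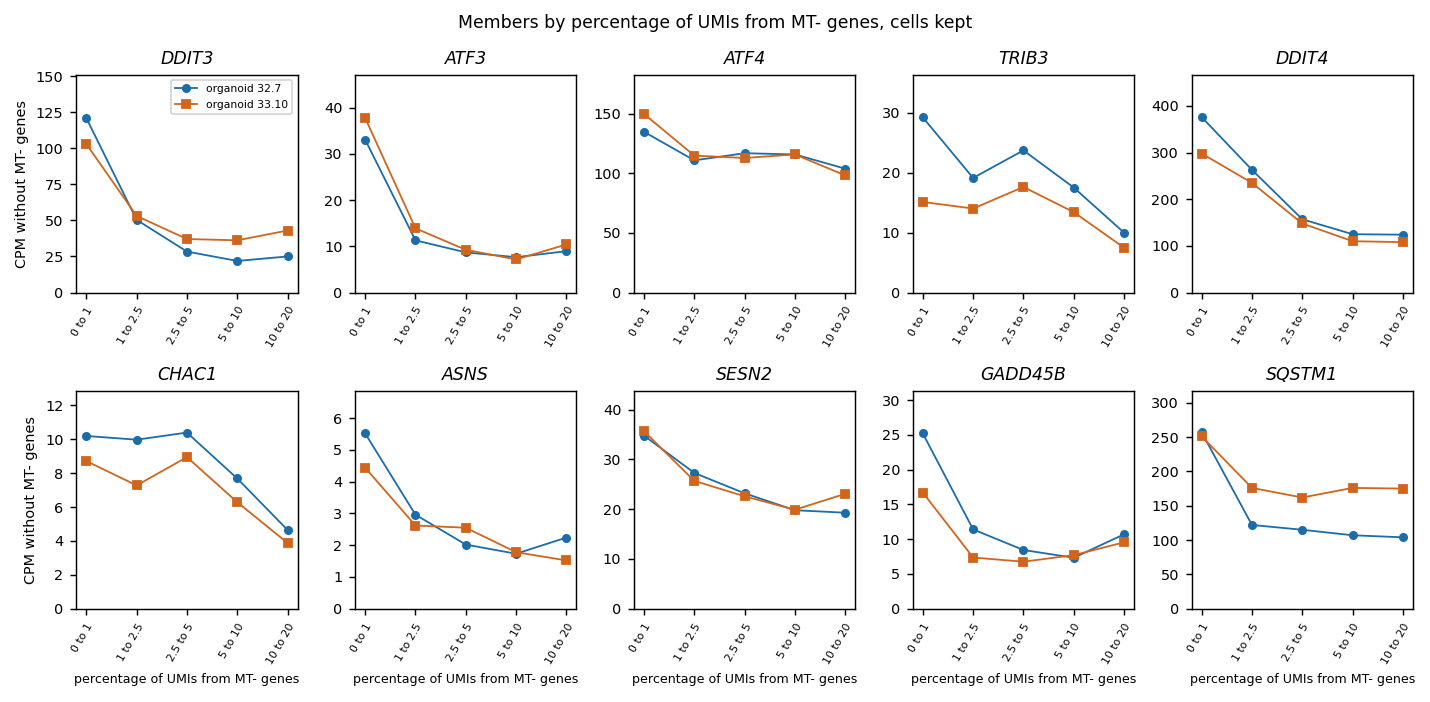
Level of each gene (y axis, CPM of UMIs outside MT- genes, from 0) by range of MT percentage (x axis, up to 20%) in organoid 32.7 (circles) and organoid 33.10 (squares). DDIT3 starts at 121 and 103 CPM under 1% and lies at 21.9 and 36.2 CPM between 5% and 10%, while ATF4 goes from 135 and 150 CPM to 116 and 116 CPM over the same ranges.

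By depth, GADD45B differed most. It was at 32.8 and 58.6 CPM in cells of 1000 to 2000 UMIs and at 5.60 and 4.89 CPM in cells of 16000 to 32000 UMIs. Without the single richest cell in the shallow range it was still 27.8 and 50.9 CPM. DDIT3 went from 70.2 and 166 CPM to 23.6 and 30.2 CPM, ATF3 from 23.2 and 25.1 CPM to 7.17 and 7.78 CPM, and SQSTM1 from 177 and 395 CPM to 107 and 133 CPM. SESN2 was at 22.2 and 27.5 CPM in the shallow and 21.9 and 22.4 CPM in the deep range. DDIT4 was highest in the middle of the scale, at 220 and 191 CPM between 4000 and 8000 UMIs. The megakaryocyte-erythroid cluster made up 4.15% and 14.5% of the cells of 1000 to 2000 UMIs and 0.421% and 1.79% of those of 16000 to 32000. Without that cluster DDIT3 went from 44.8 and 63.2 CPM to 23.0 and 28.5 CPM, and the mean ratio was 2.08 in place of 4.23. GADD45B then went from 18.4 and 17.6 CPM to 5.59 and 4.52 CPM.

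**Figure D4:**
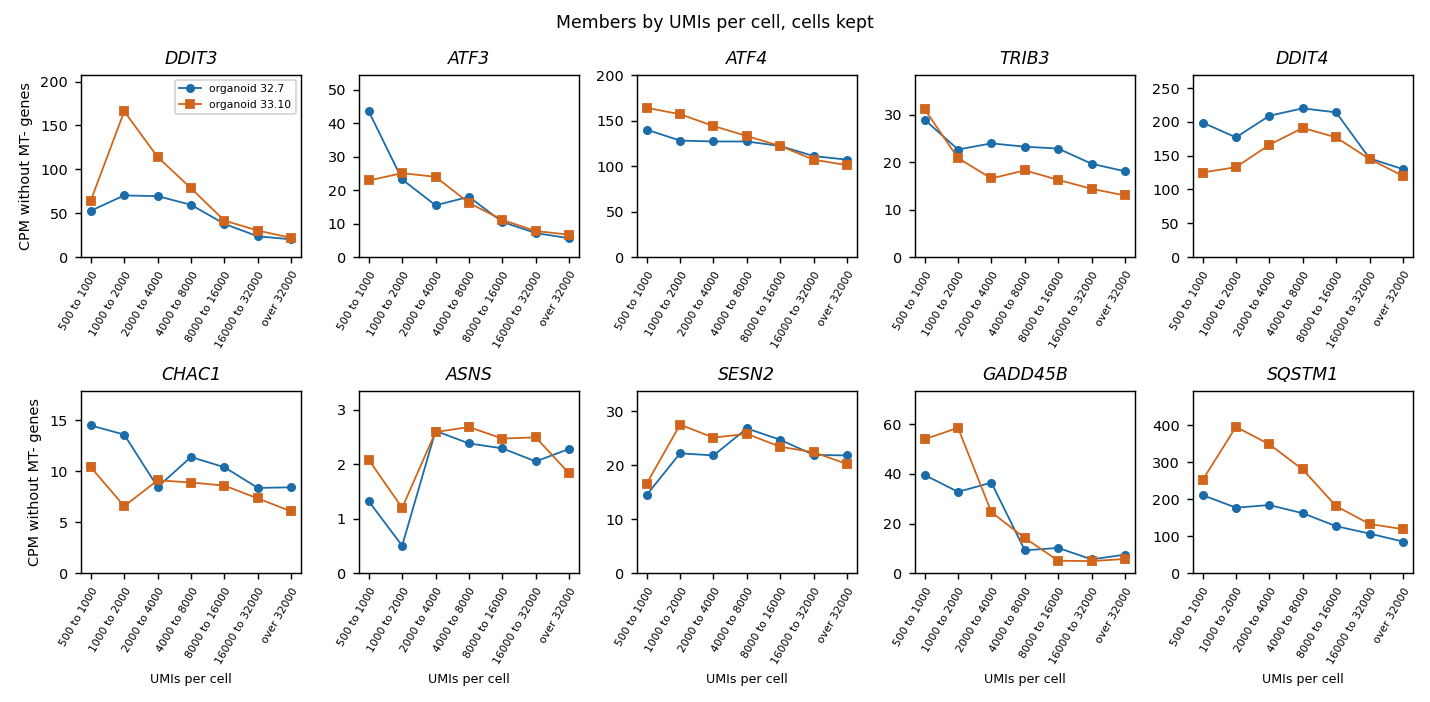
Level of each gene (y axis, CPM of UMIs outside MT- genes, from 0) by UMIs per cell (x axis) in organoid 32.7 (circles) and organoid 33.10 (squares). GADD45B drops from 32.8 and 58.6 CPM at 1000 to 2000 UMIs to 5.60 and 4.89 CPM at 16000 to 32000, and SESN2 shows no such slope.

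To separate MT percentage and depth from cell type, cells were ranked by MT percentage within each cluster, organoid and 1 of 5 depth bins and cut into 3 groups of like size. The UMIs of the high and low groups were compared at equal totals per cluster. The median MT percentage was 2.61% and 2.30% in the low groups and 7.36% and 6.77% in the high groups. DDIT3 was lower in the high group, with a log2 difference of -1.04 and -0.54. Each of the 8 named lineages was negative in both organoids. Erythroid (-1.66 and -1.40) and endodermal cells (-1.85 and -2.26) differed most. The endodermal values rest on few counts, 177 and 33 DDIT3 UMIs before the cells were grouped, the 33 from 32 cells of organoid 33.10. Epicardial or mesenchymal cells differed least (-0.16 and -0.19). ATF3 gave -0.51 and -0.91, DDIT4 -0.55 and -0.49, SQSTM1 -0.32 and -0.21, GADD45B -0.43 and -0.14, SESN2 -0.23 and -0.13 and TRIB3 -0.20 and -0.10. ATF4 was at 0.04 and 0.02, the one positive member, and CHAC1 (-0.15 and -0.07) and ASNS (-0.17 and -0.20) were slightly below 0.

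The same was done for depth, ranked within cluster, organoid and 1 of 5 bins of MT percentage, with medians of 3336 and 3620 UMIs in the shallow groups and 18937 and 18765 in the deep groups. DDIT3 was 1.00 and 1.01 higher on the log2 scale in the shallow group and GADD45B 0.95 and 1.10 higher. ATF3 (0.70 and 0.67), CHAC1 (0.70 and 0.42), DDIT4 (0.66 and 0.35), SQSTM1 (0.37 and 0.37) and ATF4 (0.33 and 0.29) were also higher in both organoids. TRIB3 (0.39 and -0.02) and SESN2 (0.06 and -0.04) had opposite signs in the 2 organoids, and ASNS was at 0.27 and 0.02. For DDIT3, 7 lineages passed a floor of 20 UMIs in each organoid. DDIT3 was higher in the shallow group of both organoids in 5 of them and lower in 1. The megakaryocyte-erythroid cluster, at 1.69 and 1.73, was among the 5, and myeloid cells, at -0.17 and -0.52, were the lower lineage. Epicardial or mesenchymal cells had opposite signs in the 2 organoids (0.82 and -0.16). Endodermal cells did too (-0.88 and 1.93), but held only 177 and 33 DDIT3 UMIs before the cells were grouped.

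**Figure D5:**
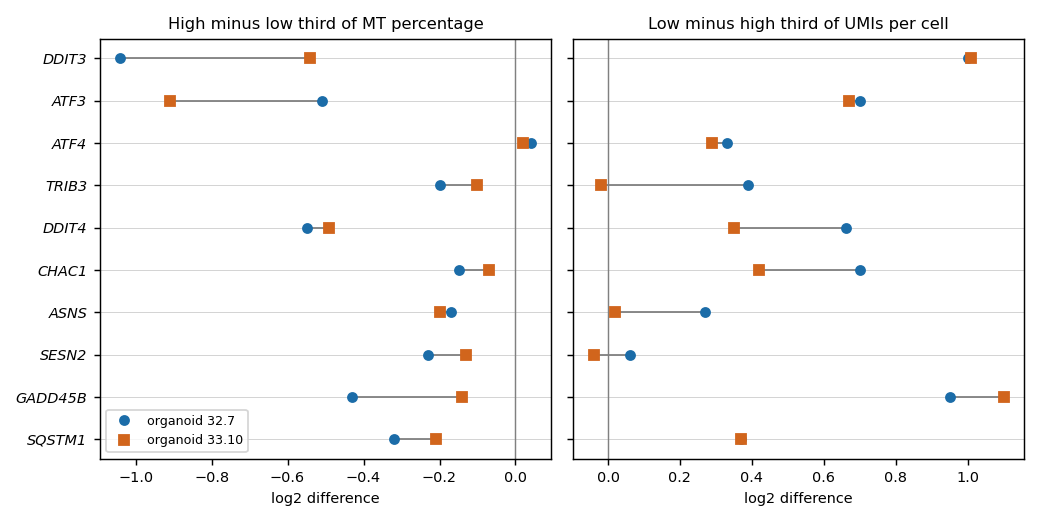
Log2 difference of each gene between matched groups of cells, high minus low MT percentage (left) and low minus high UMIs per cell (right), for organoid 32.7 (circles) and organoid 33.10 (squares). DDIT3 lies at -1.04 and -0.54 on the left and at 1.00 and 1.01 on the right, while ATF4 is at 0.04 and 0.02 on the left.

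Genes outside the 10 were tested in the same groups with edgeR's quasi-likelihood test, Benjamini-Hochberg adjusted, with the organoid as a term. By MT percentage 15.3% of 23975 genes were higher and 13.4% lower in the high group. Other stress targets fell together, with 8 of 12 lower, none higher and a median log2 difference of -0.30 against 0.00 for all genes. They included NUPR1 (-1.95, SE 0.17, adjusted p = 2.46e-05), GDF15 (-0.48, SE 0.07, adjusted p = 0.000759) and STC2 (-0.45, SE 0.05, adjusted p = 9.1e-05). Of 15 hypoxia genes 12 fell and none rose, VEGFA by 0.46 (SE 0.04, adjusted p = 2.42e-05), with a median of -0.36. The p53 targets gave 7 lower and 2 higher of 17, BBC3 at -0.62 (SE 0.05, adjusted p = 9.52e-06), and all 4 nuclear-retained RNAs fell, MALAT1 at -0.64 (SE 0.04, adjusted p = 4.38e-06).

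By MT percentage, 7 of 13 tRNA synthetases rose and none fell, VARS by 0.36 (SE 0.05, adjusted p = 0.000297). Amino acid targets were split, 3 higher and 4 lower of 17, with MTHFD2 at 0.20 (SE 0.04, adjusted p = 0.00205) and the cystine transporter SLC7A11 at -0.37 (SE 0.06, adjusted p = 0.00105). Of 18 ER genes 4 rose and 1 fell, and 4 of 8 mitochondrial chaperones and proteases rose and none fell, HSPE1 by 0.43 (SE 0.04, adjusted p = 5.19e-05). Of 15 genes of eIF2 and its regulators 7 rose and 3 fell, the ER kinase EIF2AK3 at -0.28 (SE 0.05, adjusted p = 0.00113).

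By depth 8.74% of 20955 genes were higher and 9.21% lower in the shallow group. Immediate early genes gave 10 higher and none lower of 19, NFKBIA at 0.62 (SE 0.06, adjusted p = 9.21e-06), and hypoxia genes 10 higher and none lower of 15. Of 12 other stress targets 6 rose, PPP1R15A by 0.55 (SE 0.06, adjusted p = 3.89e-05), and none fell. The tRNA synthetases gave 3 lower and none higher of 13, IARS at -0.27 (SE 0.06, adjusted p = 0.00478), and the amino acid targets 2 higher and 1 lower of 17. The median was 0.28 for the immediate early genes, 0.23 for the hypoxia genes, 0.25 for the other stress targets, -0.08 for the tRNA synthetases and 0.08 for the amino acid targets, against 0.02 for all genes.

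Matching did not make the groups alike in cell identity. In the high-MT group 9 of 10 cardiomyocyte markers rose (median 0.78), while 7 of 9 endodermal (median -0.86), 7 of 9 mesenchymal and 6 of 9 erythroid markers fell. In the shallow group 7 of 9 monocyte or macrophage markers rose, and all 5 cycling markers fell (median -0.64). The part of these shifts in the members' differences was not tested. The counts of genes called rest on how alike the group differences were in 2 organoids, with the organoid as a term. Without that term, which leaves the spread between organoids in the error, edgeR called 0 genes in both comparisons (2669 and 1824 at an unadjusted p under 0.05).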

How the data were processed

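Single-cell 3′ RNA libraries of 2 BG-HFOs were analysed from the deposited UMI counts. The authors made these counts with Cell Ranger 7.0.0, aligning to GRCh38 with intronic reads counted. The authors' later equalisation of depth and removal of free RNA are not in the deposited counts. Cells with 50 to 11000 genes and under 30% MT were kept, as in the study. Log-normalised values of variable genes (2972 of 3000 selected, without MT- genes, the members and the lists) were regressed on counts and MT percentage, reduced to 13 components and clustered with Leiden (20 neighbours, resolution 0.8, scanpy 1.11.5, leidenalg 0.10.2).

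A cluster took the name of the class with the highest mean log2 ratio of its markers, provided that at least 3 markers were raised. It stayed unnamed where an unrelated class reached 0.5 of that mean. This rule was written after the scores were seen. The 10 members, the marker lists and the gene lists were chosen with earlier results of these data known. Named are all members, at most 4 genes of a list in each direction by size of change, and the 5 genes most like a member.

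Levels are counts per 1000000 UMIs (CPM), summed per lineage and organoid and described by both values. Depth ranged from a median of 7842 to 8284.5 UMIs per cell, and intervals were not computed, since n = 2 organoids limits the precision. A call by size needed 2-fold in both organoids after adding 5 CPM. Sums of matched groups were tested with edgeR 4.0.16 (TMM, organoid as a term, since the groups of an organoid come from 1 library), and DESeq2 1.42.0 was an alternative. These groups are cells of the same 2 libraries, so p-values measure only how alike the group differences were in these 2 organoids. On simulated counts for the 23975 genes of the MT comparison, 78 of 100 genes changed by a log2 of 1 and 90 of 100 changed by 2 were recovered, with 5.62% false calls. For the 20955 genes of the depth comparison these were 83, 92 and 3.85%. The simulated counts held no difference between organoids and no shift in cell identity between groups, so these rates do not give the false calls in the real data. Other genome sequence was not used here beyond the RefSeq promoter windows (GRCh38.p14) and GENCODE positions. Scrublet marked 0% of organoid 32.7 at its own threshold, so the 14.0% of cells with the highest scores were taken there, beside 20.6% of organoid 33.10, for the alternative without doublets. Alternatives also covered the denominator, resolution, cell filter, normalization, count filter, 3 or 2 groups of cells, matching, thinning and leaving out each organoid.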

Additional observations from a re-analysis of the deposited data

Results flagged for a closer look

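Matched differences of a member between lineages are given here where the 2 organoids were positive in one lineage and negative in another, among lineages with at least 20 UMIs in each organoid. None of these differences between lineages was tested, and in each case the first named lineage was chosen for its high and the second for its low values. By MT percentage (high minus low group, log2 scale), ATF4 was at 0.10 and 0.12 in endothelial and at -0.33 and -0.95 in endodermal cells, a gap of 0.75 between means. CHAC1 was at 0.07 and 0.24 in megakaryocytes and at -0.77 and -0.51 in cardiomyocytes, a gap of 0.80. ASNS, whose counts are uncertain, was at 0.10 and 0.06 in endothelial and at -0.16 and -0.04 in epicardial or mesenchymal cells, a gap of 0.18. SQSTM1 was at 0.12 and 0.02 in epicardial or mesenchymal and at -1.23 and -1.01 in erythroid cells, a gap of 1.19.

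By depth (shallow minus deep group), DDIT3 was at 1.69 and 1.73 in the megakaryocyte-erythroid cluster and at -0.17 and -0.52 in myeloid cells, a gap of 2.06. SESN2 was at 0.74 and 0.41 in erythroid and at -0.08 and -0.06 in epicardial or mesenchymal cells, a gap of 0.65. SQSTM1 was at 0.66 and 1.04 in erythroid cells and at -0.14 and -0.40 in cardiomyocytes, a gap of 1.12.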

How the results depend on the processing

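The level of DDIT3 in the megakaryocyte-erythroid cluster depended most on how cells were clustered. At resolution 0.4 its mean fold over the other lineages was 3.25 in place of 11.3, with 1.82 for ATF3 (6.81 before), 1.42 for GADD45B (6.62), 4.56 for SQSTM1 (12.4) and 1.84 for DDIT4 in epicardial or mesenchymal cells (1.47). Without predicted doublets DDIT3 was at 14.2, SQSTM1 at 16.6 and DDIT4 in endothelium at 0.269 (0.304 before). With the stricter cell filter DDIT3 was at 14.8, DDIT4 in epicardial or mesenchymal cells at 1.28 and DDIT4 in endothelium at 0.268. Medians over clusters gave 2.75 for TRIB3 (2.95), 1.47 for CHAC1 (1.68) and 0.543 for DDIT4 in endothelium. No direction changed among these.

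With 1 organoid left out, the fold in the megakaryocyte-erythroid cluster was 9.48 for DDIT3 with organoid 33.10 alone, 3.91 to 9.72 for ATF3, 5.02 to 8.23 for GADD45B and 10.6 to 14.3 for SQSTM1. In 4 cases the sign rested on 1 organoid. The depth ratio was 0.914 to 1.22 for DDIT4 and 0.896 to 1.63 for CHAC1, and the matched depth difference -0.02 to 0.39 for TRIB3 and -0.04 to 0.06 for SESN2. Leaving out the megakaryocyte-erythroid cluster, an alternative chosen after seeing the data, gave a DDIT3 depth ratio of 2.08.

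Without the replicate block, that is with no organoid term, 0 genes were called by MT percentage (6876 with it) and 0 by depth (3761 with it). DESeq2 called 3558 and 1590. The cause was not tested. With 2 organoids, precision is limited for members with few UMIs, ASNS above all.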
